A study of Mus musculus with 20 samples.

Results

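The genes described here are 9 glycolytic enzymes of mouse male germ cells, the testis isozymes Ldhc, Pgk2 and Gapdhs and the more widely expressed enzymes Ldha, Hk1, Hk2, Pfkp, Pfkm and Aldoa. They were chosen by gene symbol and are 9 of the 11972 genes with at least 1 listed N6-methyladenosine (m6A) peak in any stage, with 45 of 84778 peaks. The study mapped m6A in C57BL/6 germ cells of 5 successive stages, namely undifferentiated spermatogonia, type A1 spermatogonia, preleptotene spermatocytes at the entry into meiosis, spermatocytes of the pachytene and diplotene stages of the first meiotic prophase (written pachytene/diplotene), and round spermatids, the first haploid cells. Each stage had 2 libraries from fragments pulled down with an anti-m6A antibody and 2 input libraries, 20 libraries in 10 groups. No treatment, mutation or animal age is given for them, and separate animals are not stated for the replicates, so p-values measure the spread between these libraries, which may be technical. The values are the deposited log2 enrichments of pulled-down over input signal, 1 per replicate and peak. At each peak the values of the stage it is compared with were recovered as deposited enrichment minus deposited ratio. They are also called deposited values below. A gene is called marked in a stage when that stage's table lists at least 1 peak for it. A gene without a peak may be unmethylated, weakly methylated or too weakly transcribed for a peak, and these cannot be told apart here.

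Glycolysis splits glucose into pyruvate, and lactate dehydrogenase converts pyruvate and lactate into each other. Spermatocytes and spermatids use lactate supplied by Sertoli cells, while sperm rely on glycolysis along the tail, and several steps are run in these cells by isozymes made only or mainly in the male germ line. Pgk2 is an intronless autosomal copy of the X-linked gene Pgk1, and the X chromosome is silenced in meiosis. m6A is laid on mRNA in the nucleus by the Mettl3 and Mettl14 methyltransferase and is read by proteins that alter splicing, translation and decay.

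Promoter windows that hold the first 50 nt of a transcript reach into the peaks of Hk2 and Ldhc that begin at base 1, and part of the Hk2 peak is shown. Hk2 encodes hexokinase 2, which phosphorylates glucose at the mitochondrial surface, and its peak in undifferentiated spermatogonia covered transcript bases 1 to 100 in the 5′ UTR. The stretch below is bases 21 to 50 of the transcript, chr6:82774405-82774434 on the minus strand of GRCm38.p6 (RefSeq), with the letters GGAC in capitals at bases 33 to 36. GGAC is a common core of the m6A consensus in mammals.
Hk2: gctggagtctcaGGACaccacaggctaccc
GGAC, searched on the transcript strand only, was present in the first 50 nt of 6194 of 32851 RefSeq windows (18.85%), and a match describes letters in this window, not a methylated site. Of the 2 RefSeq windows of Ldhc 0 held GGAC, which says only that these letters are not in those windows.

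Depth was 9622068 to 22402907 mapped reads per library. Between 92.85% and 97.64% of reads mapped in the libraries outside type A1, against 85.5% to 87.51% in the type A1 pull-downs and 68.3% to 73.15% in the type A1 inputs. The scale of the deposited enrichment differed between stages. The lowest listed mean over replicates lay between 1.42 and 1.55 in 3 stages but was 0.71 for type A1 and 0.61 for round spermatids, so levels are set against the peaks of their own table. The stage labels were checked against marker genes, by peaks only, and many markers were marked in more than 1 stage. Over the 5 stages in order, 8, 6, 2, 1 and 0 of 8 markers of undifferentiated spermatogonia were marked, and 4, 5, 5, 1 and 1 of 6 of differentiating spermatogonia. For early meiosis it was 6, 6, 7, 4 and 4 of 7, and for pachytene 4, 1, 3, 6 and 6 of 6. For round spermatids it was 2, 0, 2, 6 and 5 of 7, with more in pachytene/diplotene than in round spermatids, where Tnp1 and Crem had no peak. Of 18 markers of Sertoli, Leydig, stromal, blood and macrophage cells, 16 were marked in the undifferentiated table, and 2, 5, 0 and 1 in the 4 later ones in order. Their strongest peaks in the undifferentiated table had mean log2 enrichments of 2.48 to 5.90, and the part of RNA from such cells in the results below was not tested.

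Of the 5 enzymes marked in undifferentiated spermatogonia 4 were marked again in pachytene/diplotene (Hk1, Pfkp, Pfkm and Aldoa) and 3 in round spermatids (Pfkp, Pfkm and Aldoa). In undifferentiated spermatogonia 5 of 9 were marked (Hk1, Hk2, Pfkp, Pfkm and Aldoa), beside 75.9% of the 11972 genes. In type A1 it was 3 of 9 (Hk1, Hk2 and Aldoa), beside 61.1%, and in preleptotene 1 of 9 (Aldoa), beside 62.4%. In pachytene/diplotene 8 of 9 were marked, all but Hk2, beside 56.1% of genes, and in round spermatids 7 of 9, all but Hk1 and Hk2, beside 46.9%. The 3 testis isozymes and Ldha had peaks in the last 2 stages and none in the first 3, Hk2 had peaks in the first 2 stages and none later, and Aldoa had a peak in all 5 stages. With only the 10950 strongest peaks of each table, the number of enzymes marked was 1, 0, 1, 6 and 7 in the 5 stages in order, and with a mean enrichment of at least 2 it was 5, 0, 1, 8 and 1. Most peaks of the enzymes were weak for their tables, with 8 of 45 above their own table's median.

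**Figure D1:**
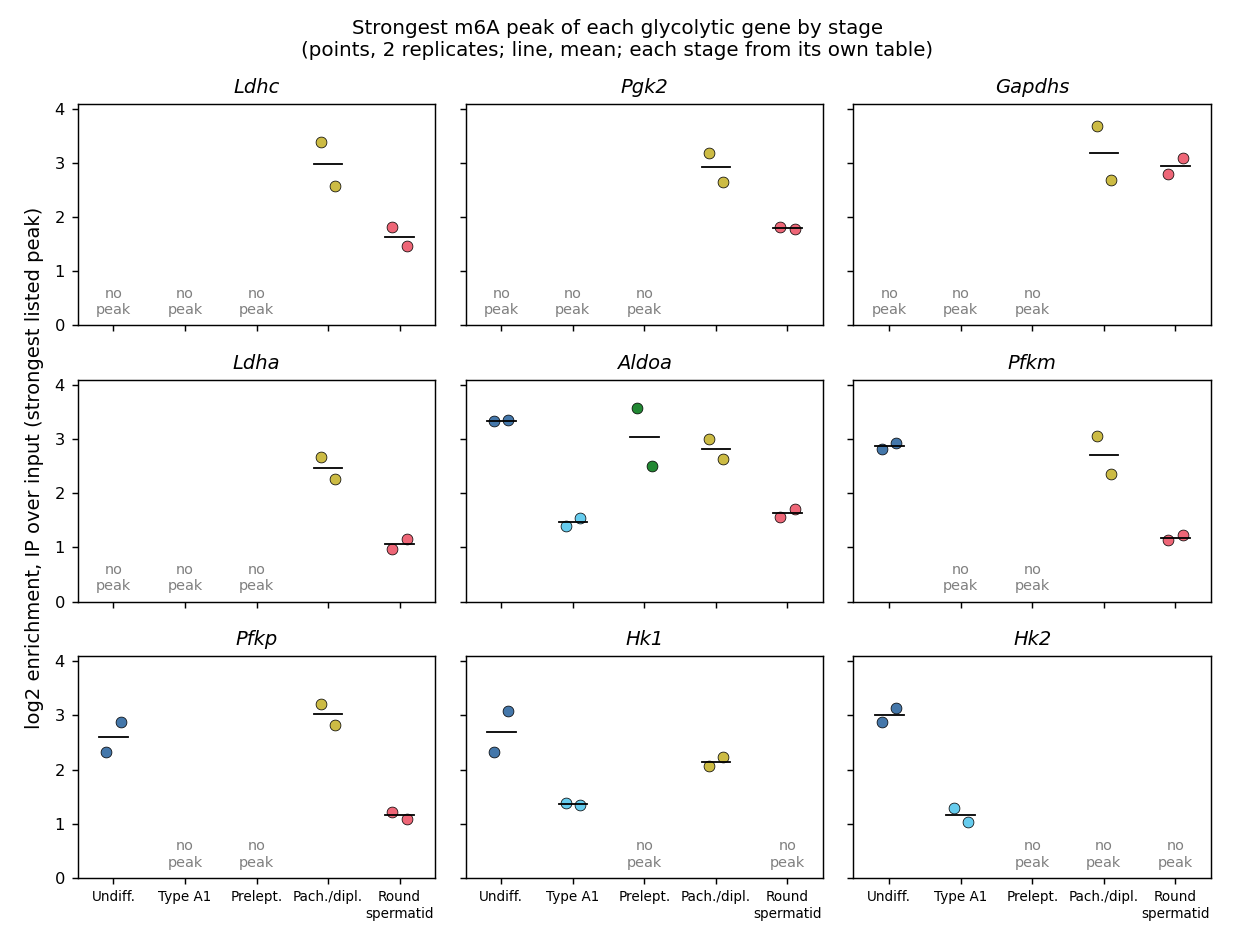
Deposited log2 enrichment of each gene's strongest listed peak (vertical axis) in the 5 stages in order of development (horizontal axis). Points are the 2 replicates, short lines are their means, and the words no peak mark stages without a listed peak. Aldoa has points in every stage, and Gapdhs stands highest of the enzymes in round spermatids with 2.79 and 3.10.

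The peaks lay mostly in coding sequence, as did those of other genes. Of the 45 peaks 28 were labelled as coding, against 58.32% of all peaks, 7 as 3′ UTR against 13.51%, 5 at the start codon against 8.60%, 3 at the stop codon against 8.66% and 2 as 5′ UTR against 4.41%. The hexokinases held all 7 peaks of the 3′ UTR, both of the 5′ UTR and 2 of the 3 at the stop codon. The testis isozymes had no peak labelled as UTR, though the start codon peak of Ldhc began at base 1 of the transcript. The preleptotene table uses no start or stop codon label.

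**Figure D2:**
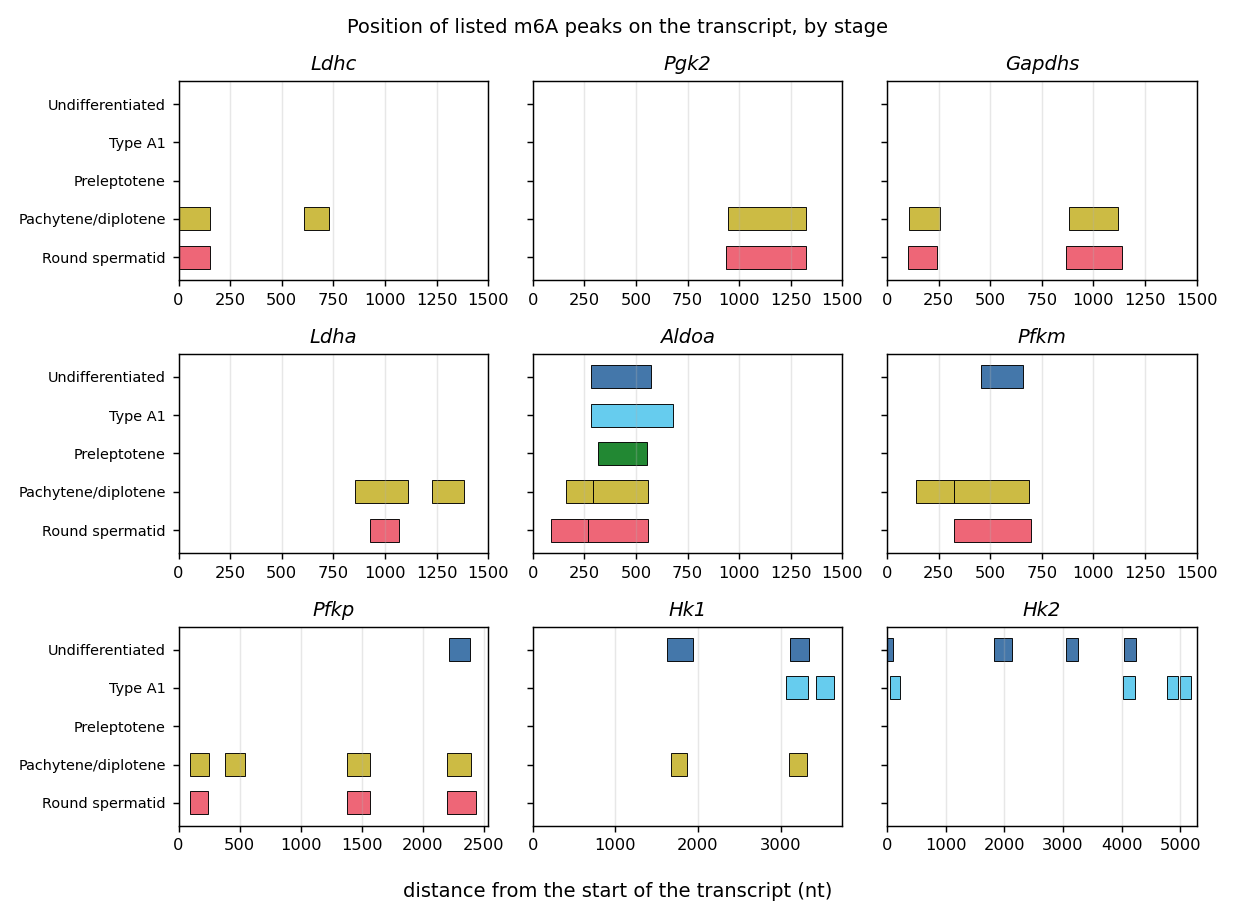
Extent of every listed peak on its transcript (horizontal axis, nt from the transcript start) for the 9 genes, with 1 line of bars per stage in order of development and bars coloured by stage. Bars stack at the same positions in pachytene/diplotene and round spermatids, where each of the 11 peaks of the spermatid table overlaps at least 1 of the pachytene/diplotene table.

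Ldhc encodes the lactate dehydrogenase subunit of testis and sperm, which mice need for normal male fertility (chromosome 7, 46861263 to 46878147, GRCm38.p6). Its start codon peak, at transcript positions 1 to 151, had enrichments of 1.83 and 1.47 in round spermatids, against 3.39 and 2.58 in pachytene/diplotene. Its second peak, in coding sequence at 608 to 730, had 0.79 and 0.64 in round spermatids, against 2.33 and 1.87 in pachytene/diplotene, and is listed only in the pachytene/diplotene table. Both peaks had every spermatid value below every pachytene/diplotene value, and 97.6% of all peaks in that table had values that did not overlap. Within each table the start codon peak was of middling strength, higher than 48.32% of peaks in round spermatids and 55.14% in pachytene/diplotene, while the coding peak stood above 7.68% of the pachytene/diplotene peaks.

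Pgk2 encodes phosphoglycerate kinase 2, the first ATP-yielding step in spermatids and sperm (chromosome 17, 40207018 to 40208609). It had a single peak in coding sequence, at 937 to 1323 in round spermatids and 945 to 1323 in pachytene/diplotene. At the pachytene/diplotene peak the values were 1.82 and 1.79 in round spermatids, against 3.20 and 2.65 in pachytene/diplotene, again without overlap. Its place among marked genes was 46.34% from the bottom in round spermatids and 37.36% in pachytene/diplotene.

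Gapdhs encodes the glyceraldehyde-3-phosphate dehydrogenase of sperm, which is bound to the fibrous sheath of the tail and is needed for motility (chromosome 7, 30729779 to 30744791). Its stronger peak, in coding sequence at 106 to 258, had 2.86 and 3.15 in round spermatids, against 3.68 and 2.69 in pachytene/diplotene. These values overlapped between the stages, while the other 16 peaks of the enzymes in that table had both spermatid values below both pachytene/diplotene values. In the spermatid table the same place was listed as a peak at 101 to 241 and exceeded 93.52% of that table's peaks, and among genes Gapdhs stood at 89.85% of the marked genes in round spermatids, against 48.23% in pachytene/diplotene. Its other peak, at 881 to 1120, had 1.73 and 1.52 in round spermatids, against 2.43 and 2.05 in pachytene/diplotene.

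Ldha encodes the lactate dehydrogenase subunit that predominates in muscle (chromosome 7, 46842274 to 46855627, upstream neighbour of Ldhc). It had a coding peak at 855 to 1113, with 0.89 and 1.11 in round spermatids, against 2.67 and 2.27 in pachytene/diplotene. A stop codon peak at 1231 to 1381 had 0.54 and 0.54 in round spermatids, below the lowest listed mean of that table (0.61), against 2.29 and 1.91 in pachytene/diplotene. Only the coding peak was listed in round spermatids, where it exceeded 9.05% of peaks. Ldha thus shared its stages of marking with Ldhc but not its start codon peak.

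Aldoa encodes aldolase A, which splits fructose 1,6-bisphosphate (chromosome 7, 126795234 to 126800994). A coding peak covering positions 315 to 554 recurred in every stage. Its replicates had 3.34 and 3.35 in undifferentiated, 1.40 and 1.54 in type A1 and 3.58 and 2.50 in preleptotene. Pachytene/diplotene spermatocytes had 3.0 and 2.64, and round spermatids 1.20 and 1.34. The low levels fell in the tables with low medians, and the peak exceeded 63.1%, 32.36%, 55.12%, 47.8% and 24.06% of its table's peaks in that order. A second peak toward the start of the transcript was listed in the last 2 stages, at 89 to 267 in round spermatids with 1.56 and 1.72 there, and at 163 to 290 in pachytene/diplotene with 2.54 and 2.05 there. Reads of Aldoa may be shared with its germ line copies Aldoart1 and Aldoart2, so how they were divided between the 3 genes is uncertain.

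Aldoa was the only 1 of the 9 genes marked in at least 4 stages, and its pattern could be compared with 2846 genes marked in all 5. Ranked by the largest difference in percentile of the strongest peak among marked genes over the 5 stages, the most similar were Nomo1 (3.60 percentile points), Dctn1 (3.68) and Efr3a (7.08). Aldoa stood at 44.26, 18.41, 36.59, 32.92 and 36.81 percent from undifferentiated to round spermatid, and Nomo1 at 42.17, 21.95, 34.30, 33.87 and 33.21. This likeness is a description over 5 stages of 1 table each.

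The phosphofructokinases commit sugar to glycolysis. Pfkm, the muscle form (chromosome 15, 98092589 to 98132447), had 1 coding peak in undifferentiated spermatogonia at 457 to 661, with 2.81 and 2.93 there. It was unmarked in type A1 and preleptotene and was marked again later. At 324 to 687, which covers the early position, the values were 1.14 and 1.24 in round spermatids, against 3.06 and 2.35 in pachytene/diplotene. A start codon peak at 139 to 323, listed in pachytene/diplotene only, had 0.84 and 0.80 in round spermatids, against 2.82 and 2.24 in pachytene/diplotene.

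Pfkp, the platelet form (chromosome 13, 6579874 to 6649060), had 1 peak in undifferentiated spermatogonia, at 2220 to 2390 with 2.32 and 2.88, none in type A1 and preleptotene, then 4 in pachytene/diplotene cells and 3 in spermatids. The peak at 2201 to 2396, which covers the early one, was the strongest in pachytene/diplotene. It had 1.29 and 0.97 in round spermatids, against 3.21 and 2.83 in pachytene/diplotene. The peak at 382 to 541 was not listed in round spermatids, with 0.07 and 0.24 there, against 2.49 and 2.28 in pachytene/diplotene. The peaks at 93 to 250 and 1381 to 1568 were kept in both tables with spermatid values of 0.85 to 1.22, against 2.02 to 2.80 in pachytene/diplotene.

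Hk1 encodes hexokinase 1, of which germ cells make their own variants (chromosome 10, 62268855 to 62379920). It was marked early and again in pachytene/diplotene. A coding position was listed at 1628 to 1937 in undifferentiated spermatogonia, with 0.40 and 0.25 in type A1, against 2.32 and 3.08 in undifferentiated, and at 1669 to 1870 in pachytene/diplotene, with 0.30 and 0.88 in round spermatids, against 2.06 and 2.23 in pachytene/diplotene. A position near the stop codon and start of the 3′ UTR was listed in all 3 stages where Hk1 was marked, at 3114 to 3340 in undifferentiated, 3071 to 3330 in type A1 and 3101 to 3320 in pachytene/diplotene. The last of these stood above 0.90% of its table's peaks, close to the lowest listed.

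Hk2 (chromosome 6, 82725025 to 82774454) had 4 peaks in undifferentiated spermatogonia and 4 in type A1, and none later. In undifferentiated spermatogonia the stop codon peak at 3052 to 3251 was the strongest, with 0.67 and 0.73 in type A1, against 2.88 and 3.13 in undifferentiated. The 5′ UTR peak shown in part above had 1.37 and 1.19 in type A1, against 1.51 and 2.61 in undifferentiated. Type A1 had an overlapping listed peak at 45 to 216, which does not reach the GGAC at bases 33 to 36. A 3′ UTR peak was listed in both tables too, at 4039 to 4254 in undifferentiated and 4024 to 4230 in type A1, and a coding peak at 1832 to 2140 was listed in undifferentiated only. In type A1, 2 further 3′ UTR peaks appeared at 4771 to 4960 and 5001 to 5182. All 4 type A1 peaks were weak for that table, above 5.63% to 12.16% of its peaks.

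For tests, each peak's 2 values in the later stage were set against its 2 values in the earlier one, after centring every library on its median over the table, and p-values were adjusted over the whole table. Centring removed median shifts of -1.69 between type A1 and undifferentiated, 1.06 between preleptotene and type A1, -0.00 between preleptotene and undifferentiated, and -1.61 and -1.18 between round spermatids and pachytene/diplotene in their 2 tables. A centred difference is therefore relative to the typical peak, in log2 units, and is positive where the later stage was higher. Each table holds the peaks listed in its own stage, so a peak with none listed in the stage it is set against was chosen through the stage where it is high, and its difference is given as a description.

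Type A1 against undifferentiated spermatogonia asked which early peaks shifted as cells entered differentiation. None of the 9 peaks of the enzymes was called by limma at an adjusted p of 0.05, and 4 had an unadjusted p below it, where 25.1% of the table's peaks were called (9.22% higher and 15.9% lower). The nearest was the Hk2 5′ UTR peak, with a centred difference of 0.91 ± 0.29 (SE, n = 2 each, limma adjusted p = 0.0527) and a difference of -0.78 without centring. Next came the Hk1 coding peak at 1628 to 1937, with -0.68 ± 0.26 (adjusted p = 0.0861). The Aldoa peak had -0.04 ± 0.27 (adjusted p = 0.925). The deposited values of all 9 peaks lay lower in both type A1 replicates, and 95.2% of the table's peaks had values that did not overlap. Leaving out undifferentiated replicate 2 brought 4 of the 9 peaks past the threshold and leaving out replicate 1 brought 1.

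Preleptotene spermatocytes against type A1 spermatogonia asked about the entry into meiosis. Of the 7 peaks of the enzymes in the type A1 table, 3 were called lower in preleptotene and 0 higher, where 14.4% of the table's peaks were called lower and 13.6% higher, and all 3 were 3′ UTR peaks of hexokinases. These 3 peaks are listed in type A1 and not in preleptotene, which favours a lower preleptotene value, and no hexokinase peak is listed in preleptotene to test the other way. Hk2 at 5001 to 5182 had 0.04 and 0.40 in preleptotene, against 1.19 and 0.94 in type A1, and fell by 1.91 ± 0.26 on the centred scale (limma adjusted p = 0.00264). With libraries scaled to one spread its difference was -1.17 (adjusted p = 0.00879), the SD over peaks being 1.21 and 1.14 in the preleptotene libraries, against 0.68 and 0.66 in those of type A1. Hk1 at 3431 to 3649 had 1.0 and 0.60 in preleptotene, against 1.39 and 1.34 in type A1, and fell by 1.63 ± 0.27 (adjusted p = 0.00485).

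Hk2 at 4771 to 4960 had 1.17 and 0.79 in preleptotene, against 1.08 and 1.20 in type A1, and fell by 1.22 ± 0.27 on the centred scale (limma adjusted p = 0.0137), though its deposited values overlapped. That call was lost without type A1 replicate 1 (adjusted p = 0.109) or 2 (0.131), with libraries scaled to one spread (0.0941) and without centring (0.596), and the Hk1 call was lost without centring (0.0859). The difference in deposited values was -0.84 for Hk2 at 5001 to 5182, -0.56 for Hk1 and -0.16 for Hk2 at 4771 to 4960, the same direction as on the centred scale. Without preleptotene replicate 1 the number of peaks called was 5 of 7, and without preleptotene replicate 2 it was 6 of 7. In the comparison of all libraries the other 4 peaks were not called. Of these, Hk1 at 3071 to 3330 had 1.51 and 1.39 in preleptotene, against 1.22 and 1.04 in type A1, with a centred difference of -0.74 ± 0.25 (adjusted p = 0.0561). Aldoa had 3.21 and 2.03 in preleptotene, against 1.40 and 1.54 in type A1, a centred difference of 0.09 ± 0.39 (adjusted p = 0.884). It was called higher in preleptotene without centring (1.15, adjusted p = 0.0287) and without preleptotene replicate 2 (0.70, adjusted p = 0.0172), and was -0.52 (adjusted p = 0.0864) without preleptotene replicate 1. Deposited values did not overlap at 4 of the 7 peaks, against 85.0% of the table.

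In the direct comparison of preleptotene with undifferentiated spermatogonia, the Aldoa peak at 315 to 554 had 3.58 and 2.50 in preleptotene, against 3.43 and 3.39 in undifferentiated, and was not called (-0.36 ± 0.41, adjusted p = 0.676). Across that list of peaks 7.80% were called, 5.36% higher and 2.45% lower, and 43.1% had values that did not overlap.

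Round spermatids against pachytene/diplotene spermatocytes asked about the passage through the meiotic divisions. Relative to the typical peak, Gapdhs rose and no other enzyme was called. Of the 17 peaks of the enzymes listed in pachytene/diplotene 1 was called higher in round spermatids and 0 lower, where 8.78% of all peaks were called, 1.71% higher and 7.06% lower. This was Gapdhs at 106 to 258, with a centred difference of 1.43 ± 0.30 (SE, n = 2 each, limma adjusted p = 0.021). Of the 11 peaks listed in round spermatids 1 was called higher and 0 lower, where 27.0% of all peaks were called, 16.1% higher and 10.9% lower. It was the same place of Gapdhs, with 2.79 and 3.10 in round spermatids, against 3.59 and 2.65 in pachytene/diplotene, and a centred difference of 1.0 ± 0.29 (adjusted p = 0.0308). Both tables use the same libraries.

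Without centring the Gapdhs difference was -0.18 in the first table and -0.17 in the second (adjusted p = 0.679 and 0.71), so its rise is one relative to a typical peak that is lower in round spermatids. The first call was lost without round spermatid replicate 2 (adjusted p = 0.0591) or pachytene/diplotene replicate 2 (0.0921), and the second without round spermatid replicate 1 (0.116) or 2 (0.247) or pachytene/diplotene replicate 2 (0.0794). The second Gapdhs peak, at 881 to 1120, had a centred difference of 1.0 ± 0.28 and was not called (adjusted p = 0.0576).

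**Figure D3:**
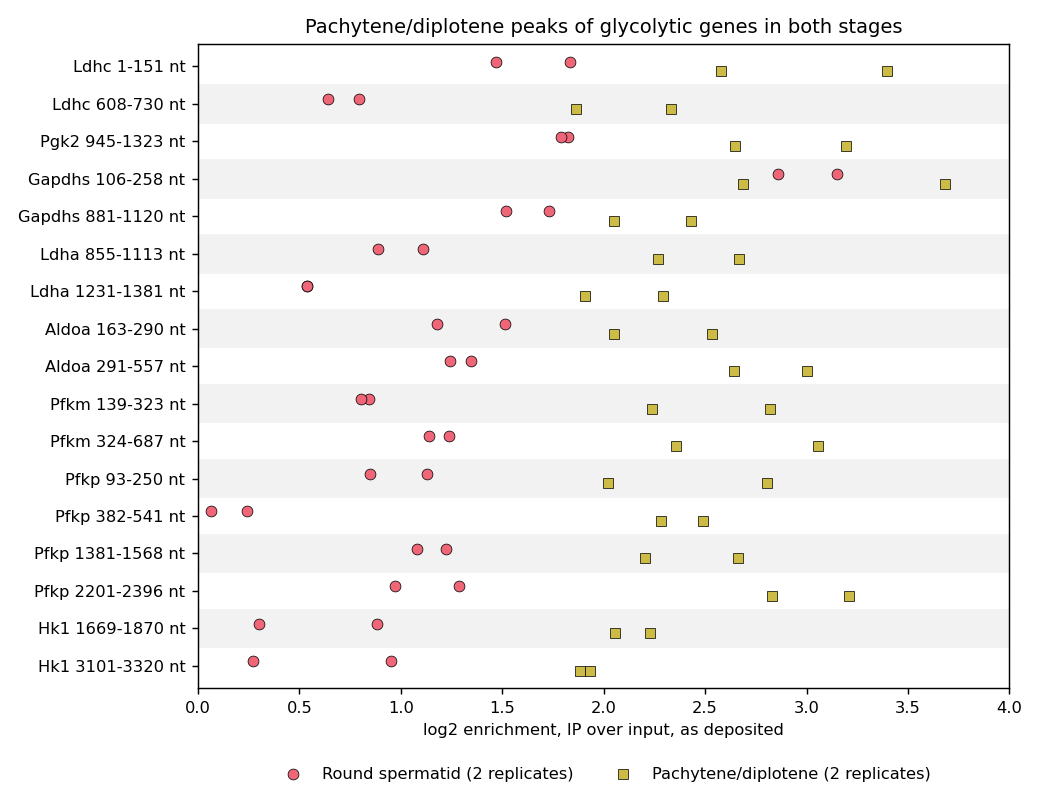
Log2 enrichment without centring (horizontal axis) of the 17 peaks of the enzymes listed in pachytene/diplotene. Points are both round spermatid replicates and both pachytene/diplotene replicates. The pachytene/diplotene values are deposited, and the round spermatid values were recovered as enrichment minus ratio. At 16 peaks both spermatid points lie left of both pachytene/diplotene points, and at Gapdhs 106 to 258 they overlap.

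No peak of the remaining enzymes was called. Pgk2 had a centred difference of 0.50 ± 0.27 (limma adjusted p = 0.309), the Ldhc start codon peak 0.28 ± 0.30 (adjusted p = 0.621) and the Ldha coding peak 0.14 ± 0.28 (adjusted p = 0.805), and all 3 were negative without centring, at -1.11, -1.34 and -1.47. The lowest was Pfkp at 382 to 541, with -0.62 ± 0.28 (adjusted p = 0.215). The median over the 17 peaks was 0.19, beside -0.01 over all peaks of that table, and over the 11 peaks of the spermatid table -0.15, beside -0.05. Deposited values did not overlap at 16 of 17 peaks, against 97.6% of all peaks, and at 10 of 11 in the spermatid table, against 87.8%.

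**Figure D4:**
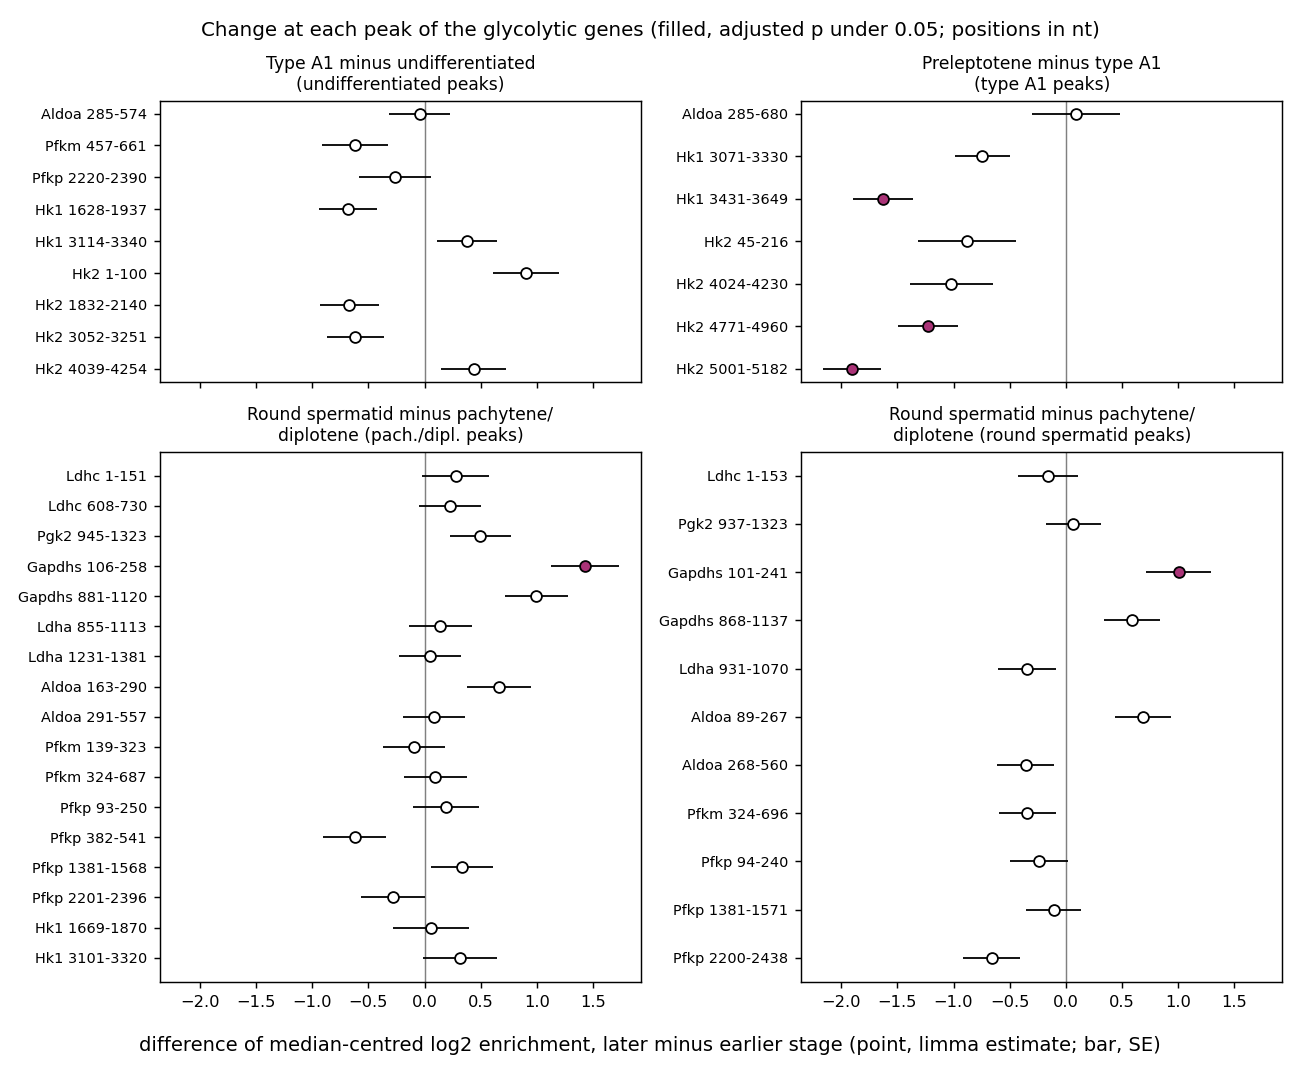
Centred difference in log2 enrichment, later minus earlier stage (horizontal axis), of each tested peak of the enzymes in 4 tables, with bars for the standard error and filled points for peaks called at an adjusted p of 0.05. The 3 called hexokinase peaks lie between -1.91 and -1.22 in the preleptotene and type A1 panel, and the Gapdhs peak lies at 1.43 and 1.0 in the last 2 panels.

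Of the other isozymes at the same steps, some were marked in the same stages as the 9 enzymes and some in other stages. Pgk1, the ubiquitous phosphoglycerate kinase, had a start region peak in the first 3 stages, with 2.62 and 3.97 in undifferentiated, 2.06 and 1.72 in type A1 and 3.46 and 3.28 in preleptotene. It had none in the last 2, where Pgk2 was marked. Ldhb, the heart subunit of lactate dehydrogenase, had 2 peaks in undifferentiated and 2 in preleptotene and none in the last 2 stages, while the testis gene Ldhal6b had 2 in each of these.

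Gapdh, the ubiquitous partner of Gapdhs, had 1 peak in undifferentiated, 1 in type A1 and 1 in round spermatids, the last with 1.04 and 0.94. Eno4, an enolase of the sperm tail, had 5 peaks in pachytene/diplotene and 4 in round spermatids, whereas Eno1, the common enolase, had 3, 1, 1 and 1 in the first 4 stages. Aldoart2 had 1 peak in each of the last 2 stages and Aldoart1 2 in round spermatids. The step to pyruvate dehydrogenase differed in that Pdha1, on the X chromosome, was marked in undifferentiated only, whereas its autosomal testis copy Pdha2 had a peak in all 5 stages.

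**Figure D5:**
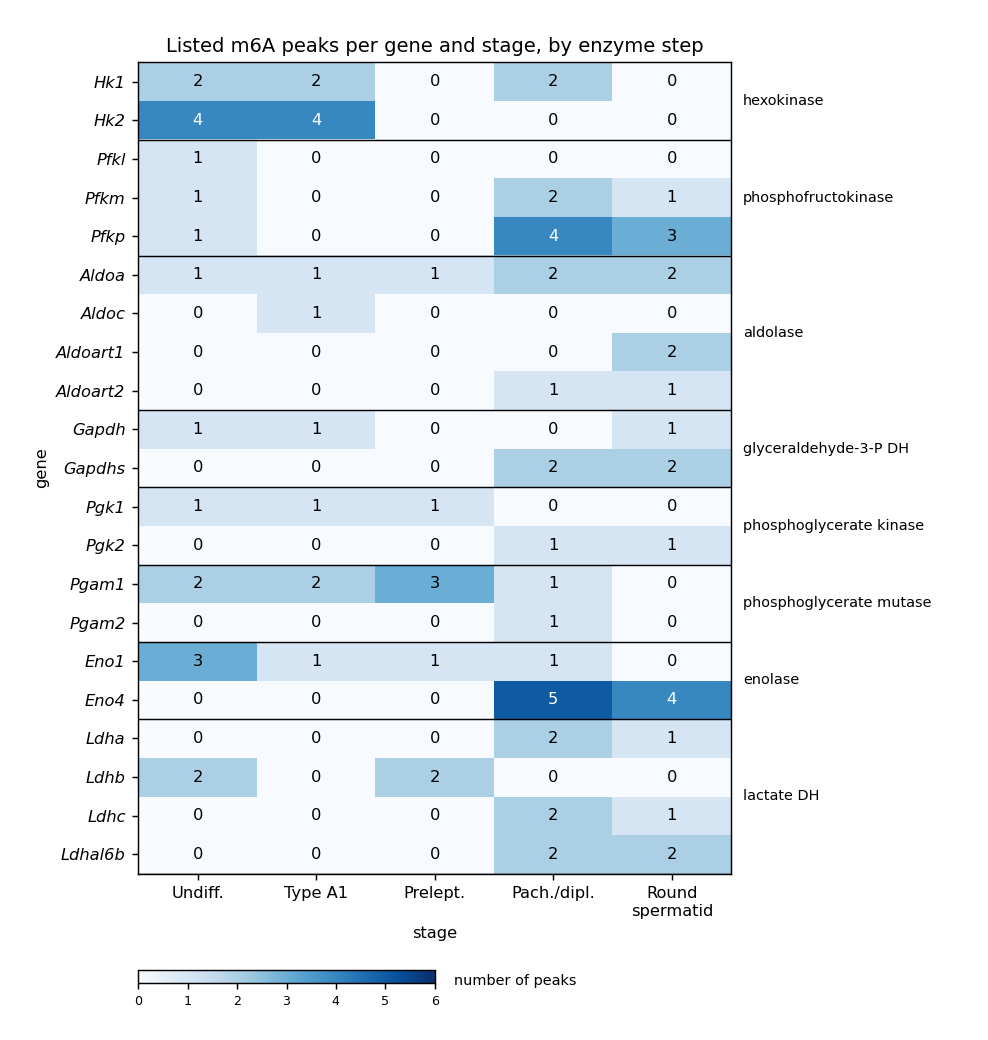
Number of listed m6A peaks (cell number and colour) for the genes of 8 enzyme steps (rows) in the 5 stages (columns). Pgk1 has 1 peak in each of the first 3 stages and Pgk2 1 in each of the last 2, and Eno4 has 5 and 4 in the last 2.

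Other genes of glucose use were counted over 4 lists. Of 28 other glycolytic enzymes 20 were marked in any stage, 14 of them in undifferentiated, 10 in type A1, and 9 in each of the last 3 stages. Of 17 regulators of glycolytic flux and gluconeogenesis 12 were marked in any stage, and 7, 6, 7, 6 and 4 by stage. Of 13 carriers of glucose, lactate and pyruvate it was 10 in any, and 7, 6, 6, 7 and 6 by stage. Of 12 genes of the pyruvate dehydrogenase complex and its kinases it was 11 in any, and 11, 9, 10, 7 and 7 by stage. Among all genes marked in any stage the shares by stage were 75.9%, 61.1%, 62.4%, 56.1% and 46.9%.

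Some of these peaks were stronger than any of the 9 enzymes in the same stage. Mpc2, a subunit of the mitochondrial pyruvate carrier, had a 5′ UTR peak with mean enrichments of 8.33, 2.97, 6.90, 6.49 and 3.48 in the 5 stages in order. The lactate carrier Slc16a1 had a stop codon peak with 7.11 and 6.70 in undifferentiated. Slc2a3, the high-affinity glucose transporter of neurons and sperm, had 1 peak in undifferentiated and 4 in each of the last 2 stages, the strongest at the stop codon with 3.40 and 3.48 in round spermatids and 5.81 and 5.42 in pachytene/diplotene.

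In tests of the lists, some members of each had a called peak. For type A1 against undifferentiated, 3 of 13 tested other glycolytic enzymes had a peak called higher and 1 a peak called lower, beside 19.4% and 30.0% of genes. The lower one was Pgam1, phosphoglycerate mutase 1, whose stop codon peak had 0.88 and 1.11 in type A1, against 3.47 and 3.87 in undifferentiated, and fell by 0.99 ± 0.25 on the centred scale (limma adjusted p = 0.0234). The higher ones were Adpgk, Gpi1 and Eno1, at 1.33, 1.02 and 0.90 on the centred scale, all negative without centring at -0.35, -0.67 and -0.79. Of the 7 carriers 1 had a peak called higher and 3 a peak called lower. Among the lower ones was Emb, which has no peak listed in type A1, so its direction is no independent result. Mpc2 had 2.76 and 3.19 in type A1, against 7.85 and 8.81 in undifferentiated, and fell by 3.67 ± 0.29 (adjusted p = 0.000613).

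For preleptotene against type A1, 1 of 10 other glycolytic enzymes had a peak called higher and 2 a peak called lower, beside 22.7% and 25.0% of genes. Pgam1 had 3.67 and 3.28 in preleptotene, against 0.99 and 1.14 in type A1, and rose by 1.35 ± 0.27 on the centred scale (limma adjusted p = 0.0101). The lower ones were the brain aldolase Aldoc and Gapdh, neither of which has a peak listed in preleptotene, so their direction is no independent result. Aldoc had 0.87 and 0.42 in preleptotene, against 1.29 and 1.32 in type A1. Gapdh had 1.40 and 1.68 in preleptotene, against 1.80 and 1.15 in type A1, with a difference of 0.06 without centring.

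For preleptotene against undifferentiated, 0 of 9 other glycolytic enzymes had a peak called higher and 1 a peak called lower, beside 8.42% and 5.22% of genes. It was Pgam1 at 138 to 327, with 4.06 and 3.06 in preleptotene, against 5.52 and 6.01 in undifferentiated, and it fell by 2.20 ± 0.39 on the centred scale (limma adjusted p = 0.00637). The undifferentiated values here were recovered as enrichment minus ratio. The strongest Pgam1 peak listed in undifferentiated lay elsewhere, at 803 to 1001, with a lower mean of 3.67.

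For round spermatids against pachytene/diplotene, none of the 9 other glycolytic enzymes in the pachytene/diplotene table was called by limma, 1 had an unadjusted p below 0.05, and 3.37% of genes had a peak called higher and 11.3% a peak called lower. Of the 9 with peaks listed in round spermatids 1 was called higher and 0 lower, beside 21.9% and 15.5%. It was Aldoart1, which has no peak listed in pachytene/diplotene, with 2.10 and 1.49 in round spermatids, against 2.26 and 1.69 in pachytene/diplotene, and a difference of -0.18 without centring. The glucose transporter Slc2a3 fell at its stop codon by 0.91 ± 0.25 on the centred scale in that table (limma adjusted p = 0.0271). Pdk3, a kinase that inhibits pyruvate dehydrogenase, had 2.29 and 2.89 in round spermatids, against 1.42 and 0.74 in pachytene/diplotene, where it has no listed peak.

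Over the 5 tables in the same order, 19.4%, 22.7%, 8.42%, 3.37% and 21.9% of all genes tested had a peak called higher and 30.0%, 25.0%, 5.22%, 11.3% and 15.5% a peak called lower. Beside these, genes with a peak called higher numbered 1 of 6, 2 of 6, 1 of 7, 1 of 6 and 2 of 4 among the regulators, and genes with a peak called lower 2, 2, 1, 1 and 1. Among the carriers those called higher were 1 of 7, 2 of 6, 0 of 6, 0 of 7 and 0 of 6 and those called lower 3, 1, 2, 0 and 2. In the pyruvate dehydrogenase list 1 of 11, 3 of 9, 1 of 10, 1 of 7 and 2 of 7 were called higher and 4, 0, 1, 0 and 1 lower. These counts include genes with no peak listed in the stage compared, among them Pfkfb2, Pfkfb3, Pck2, Prkaa1, Emb, Pdha1 and Pdk3. The direction of such calls is no independent result. Gsk3b, a kinase that restrains glycogen synthesis, had 4.03 and 3.96 at its 5′ UTR peak in type A1, against 8.16 and 8.28 in undifferentiated, and fell by 2.54 ± 0.26 on the centred scale (limma adjusted p = 0.00097). The overlapping type A1 peak of Gsk3b, at 535 to 882, was high again in preleptotene, with 8.66 and 7.62, against 3.97 and 3.90 in type A1. It rose by 3.14 ± 0.36 (limma adjusted p = 0.00185). Pdha1 had 0.42 and 0.92 in type A1, where it has no listed peak, against 4.17 and 4.16 in undifferentiated.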

How the data were processed

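The values of each peak are deposited log2 enrichments per replicate, and a second deposited log2 column is a ratio to another stage, per the file headers. The submitters' processing notes name TopHat2 2.0.14 and the build mm10. The deposited read counts per library and the deposited percent mapped gave the depth. No source used here names the peak caller, its threshold, the annotation or the scaling. The other stage is unnamed in the headers. It was found as the stage whose overlapping peaks best matched enrichment minus ratio (r of 0.943 to 0.973, against 0.429 to 0.737), and its values were recovered that way. Symbols were updated with RefSeq GRCm38.p6 (83876 of 84778 peaks by gene). Columns were centred on their median, peaks with an exact 0 left out (43 to 188 per table), and later minus earlier stage was tested with limma 3.58.1 (lmFit, eBayes; R 4.3.3), Benjamini-Hochberg adjusted over the table, threshold 0.05. The script was tested on simulated data. Genes named beyond the 9 are isozymes of the same steps (in part chosen after their values were seen), the 3 strongest per list and stage, called genes of the lists, and the 3 most similar. Alternatives were no centring, one spread, zeros kept, a minimum of 1, a replicate block, trend and robust options, and each replicate left out. Members and lists were chosen with earlier results of these data known.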

Additional observations from a re-analysis of the deposited data

How the results depend on the processing

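Without centring the calls numbered 20647 for type A1 against undifferentiated (0.0436% higher, against 36.7% with centring), 11287 for preleptotene against type A1 (95.5%, against 48.5%), 1217 for preleptotene against undifferentiated (70.8%, against 68.6%), and 14539 (0.0413%, against 19.5%) and 7997 (6.75%, against 59.7%) for round spermatids against pachytene/diplotene, and the enzymes' peaks called were 8 for type A1 against undifferentiated, 2 for preleptotene against type A1, 0 for preleptotene against undifferentiated, and 15 and 8 for round spermatids. Differences then turned negative for Hk1 3114 to 3340 (-1.31) and Hk2 4039 to 4254 (-1.25) in type A1 against undifferentiated, and also for Hk2 1 to 100 (-0.78), which was not called. In preleptotene against type A1 they turned positive, with no call, for Hk1 3071 to 3330 (0.32), Hk2 45 to 216 (0.18) and Hk2 4024 to 4230 (0.04). For round spermatids against pachytene/diplotene they turned negative for Ldhc (-1.34, -1.38), Ldha (-1.47, -1.56), Pgk2 (-1.11 in both tables), Hk1 (-1.55, -1.30), Pfkm 324 to 687 (-1.52), Pfkp (-1.42, -1.28) and Aldoa (-0.95, -1.53). They also turned negative, with no call, for Gapdhs 106 to 258 (-0.18) and 101 to 241 (-0.17), which thereby lost their calls. The same held, without a call on either scale, for Gapdhs 881 to 1120 (-0.61), Gapdhs 868 to 1137 (-0.59) and Aldoa 89 to 267 (-0.49). Leaving out 1 replicate in turn gave 1798 to 8730, 1044 to 8343, 626 to 1411, 606 to 1393 and 924 to 3216 calls in the 5 tables, of which 0 to 4, 2 to 6, 0, 0 to 1 and 0 to 1 were peaks of the enzymes. Members marked fell to 1 in undifferentiated and 0 in type A1 with the 10950 strongest peaks of each table, and to 0 in type A1 and 1 in round spermatids with a mean enrichment of at least 2, or of at least 2 in either replicate alone. With trend and robust options 1 peak of the enzymes was called in type A1 against undifferentiated. Without centring, 17 tests of single enzyme peaks changed both direction and side of the threshold. Of the other tests of single enzyme peaks under alternatives 405 stayed on their side of the threshold, 33 gained a call and 10 lost one. Replicates share a number but no stated origin. Same-number deviations correlated at -0.13, -0.14, 0.12, 0.06 and 0.02 over the tables, and a replicate block called 5688, 4568, 2509, 1657 and 3255 peaks against 5741, 4565, 1460, 1362 and 2921. Crossed pairing, chosen after seeing the data, called 1 and 6 peaks of the enzymes in the first 2 tables. The reads behind a peak's value are unknown here, and 2 replicates limit every test. Causes of the changes were not tested.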
